A study of Mus musculus with 182 samples.

Results

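A list of 53 genes that act in the G2 and M phases of the cell cycle was followed in single germinal centre B cells. The genes were chosen by symbol and not by their values, though earlier results of these data were known. All 53 were found among the 17034 gene symbols of the table. Germinal centre B cells form after immunisation, divide rapidly while their antibody genes mutate, and compete for help from T cells. The 182 cells came from the spleens of C57BL/6 mice, 13 days after immunisation with 100 μg of NP(23)-KLH (the hapten NP on a carrier protein) in 50% alum with 1 μg of LPS. Magnetic columns had removed cells bearing CD3, CD4, CD8, CD11c or IgD before B220+, Fas+ and GL7 high cells were sorted and captured singly on a Fluidigm C1 chip. The sample labels also call the sorted cells NP+, whereas the design text names NP only among the stains. The age of the mice was not given. Since no label names an animal, all cells count as 1 biological sample, and comparisons run across cells with no p-value.

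Entry into mitosis is driven by the kinase Cdk1 bound to a B-type cyclin. Aurora kinases and motor proteins build the spindle, kinetochores attach the condensed chromosomes to it, and a checkpoint holds the anaphase-promoting complex in check until every chromosome is attached. Germinal centre B cells divide quickly, and division is known to take place mostly in the dark zone, where the chemokine receptor Cxcr4 is high, while Cd83 marks the light zone.

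Values are a normalized signal that is not on a log scale, and detection of a gene means a value of 1 or more in that cell. The columns fell into 2 sets with different floors (the value at which the undetected cells of a gene stand), cells 1 to 96 and cells 97 to 182 (86 cells). What the sets are was not given in the sources used here, and the main comparisons are given within both. No member's floor exceeded 0.181 in the cells 1 to 96 or 0.368 in the others. The number of genes above their floor, the only sign of depth used here, had a median of 2666 (range 1904 to 4492) in the cells 1 to 96 and 2188.5 (980 to 5146) in the others. The number of genes at 1 or more varied less, with a median of 1904 (1873 to 1946) and 1690 (995 to 1741). In most cells the cut of 1 therefore acted much like a rank within the cell, and this rank differed between the sets. A value under 1 does not show that a gene was silent. The cells carried B cell markers (Cd79b in 180 cells, Ms4a1 in 176, Cd79a in 167, but Pax5 in 61) and germinal centre markers (Bcl6 in 106, Mef2b in 138). Of the defining markers of other cells, Cd4 was found in 0 of 182 cells (a share of up to 1.65% is possible, taking 3 cells as the limit that a count of 0 allows), and the 4 myeloid genes in 1.65% to 8.24% of cells. The T cell kinase gene Lck was detected in 99 cells. Of the 4 plasma cell genes, Prdm1 and Sdc1 were each detected in 2 cells, Xbp1 in 46 and Igj in 101. The part of other cells in the results was not tested.

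Promoters of genes of this class are known to carry a cell cycle genes homology region (CHR), bound by the DREAM and MuvB complexes, beside CCAAT boxes, bound by NF-Y. RefSeq promoter windows (GRCm38.p6) that run from 250 bases before to 50 after each start were matched by symbol for 47 of 53 members and gave 52 windows. The CHR element was searched as TTTGAA and the CCAAT box as CCAAT, each on both strands, and they shared bases in 1 member window. A CHR match was present in 34 windows (65.4%), against 17.9% of all 32851 windows of the same length. A CCAAT match was present in 39 windows (75.0%), against 37.4%, and both were present in 27 (51.9%), against 6.95%. An E2F site, searched as TTTCCCGC, TTTGGCGC or TTTCGCGC, was found in 3 member windows (5.77%), against 1.84%. In the windows of a list of S phase genes, CHR matches were found in 5 of 33 (15.2%), CCAAT matches in 24 (72.7%) and E2F matches in 12 (36.4%). A match is a description of the letters and not evidence of binding.

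The 100 bases before the start are printed for 6 members, 5 with both elements and Nuf2 with neither in its window, so that the spacing of the elements can be seen. Capitals mark the CHR and CCAAT matches on either strand, and each sequence runs 5′ to 3′ on the strand of the gene. None of these 6 stretches overlaps an annotated exon.
Top2a (chr11:99024190-99024289, minus strand): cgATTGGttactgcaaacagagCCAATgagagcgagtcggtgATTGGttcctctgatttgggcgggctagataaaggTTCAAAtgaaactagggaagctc
Hmgb2 (chr8:57511743-57511842, plus strand): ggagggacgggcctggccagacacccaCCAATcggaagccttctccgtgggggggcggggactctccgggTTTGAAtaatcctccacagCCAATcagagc
Kif11 (chr19:37376282-37376381, plus strand): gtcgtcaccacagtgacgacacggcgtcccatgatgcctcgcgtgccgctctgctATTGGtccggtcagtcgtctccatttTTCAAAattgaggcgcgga
Ckap2l (chr2:129297213-129297312, minus strand): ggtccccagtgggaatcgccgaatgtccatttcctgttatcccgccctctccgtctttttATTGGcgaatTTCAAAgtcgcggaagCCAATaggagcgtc
Ckap5 (chr2:91526662-91526761, plus strand): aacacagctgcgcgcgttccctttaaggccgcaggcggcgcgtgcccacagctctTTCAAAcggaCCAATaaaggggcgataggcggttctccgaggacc
Nuf2 (chr1:169531465-169531564, minus strand): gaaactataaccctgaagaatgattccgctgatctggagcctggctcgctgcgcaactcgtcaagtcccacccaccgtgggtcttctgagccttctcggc
In Top2a 3 CCAAT matches lie before the CHR match, in Kif11 a single CCAAT match does, and in Ckap5 the CCAAT match follows the CHR match.

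Every cell held some of the mitosis genes and none held all of them. Over the 53 members the median share of cells with the gene was 37.9%, 12 members were detected in over 50% of cells and 10 in under 20%. Intervals beside shares are exact Clopper-Pearson 95% intervals and cover only the error of counting cells. The members are described by role. Whether the signal is scaled by gene length was not given in the sources used here, so levels were not compared between genes.

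Genes of chromosome structure and of the nuclear envelope were the most widely detected, in 37.9% to 86.8% of cells (median over 11 members 65.4%). Smc4, a condensin subunit, was detected in 158 cells (86.8%, interval 81.0% to 91.4%). Top2a, the topoisomerase that untangles sister chromatids, was detected in 153 cells (84.1%, 77.9% to 89.1%). Its signal had a median of 31.5 (0 to 2913) in the cells 1 to 96 and 20.2 (up to 1625) in the others, so that the sets overlapped over most of their range. Mki67, which coats mitotic chromosomes and is known from most cycling cells, was detected in 152 cells (83.5%, 77.3% to 88.6%). Its signal had a median of 27.5 (0.181 to 1056) in the cells 1 to 96 and 33.9 (0.163 to 2455) in the others. Lbr, the lamin B receptor, followed with 145 cells, Hmgb2, a DNA-bending protein, with 130, the chromatin insulator protein Ctcf with 119 and Tmpo, a lamina-binding protein, with 117. The condensin subunit Ncapd2 was detected in 89 cells, 58.3% of the cells 1 to 96 and 38.4% of the others.

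Kinetochore and checkpoint genes spanned 19.8% to 61.5% of cells (median over 12 members 36.0%). Cenpe, the kinesin that carries chromosomes to the spindle equator, was detected in 112 cells (61.5%, 54.1% to 68.6%), at the same share in both sets (61.5% and 61.6%). Rangap1, which activates the GTPase Ran and sits at kinetochores in mitosis, was detected in 104 cells. Hjurp, the chaperone of the centromere histone Cenpa, was detected in 88 cells and Cenpa itself in 60. The Ndc80 complex subunits Ndc80 and Nuf2 were detected in 55 and 42 cells. Of the chromosomal passenger complex, Cdca8 was detected in 84 cells, Birc5 in 77 and the kinase Aurkb in 47. The checkpoint kinases Ttk and Bub1 were at the low end, with 39 and 36 cells.

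Spindle genes spanned 10.4% to 52.2% (median over 16 members 35.2%). The kinesin Kif20b was detected in 95 cells, the microtubule-binding Nusap1 in 88, the kinesin Kif11, which pushes spindle poles apart, in 80, and Tpx2, the activator of Aurka, in 76 (41.8%, 34.5% to 49.3%). Aurka was detected in 38 cells and the centrosome kinase Nek2 in 19. Gtse1, a microtubule-binding protein of G2, was detected in 23 of the cells 1 to 96 and in 4 of the other 86. Cytokinesis genes were the kinesin Kif23 (70 cells), Anln (35), the exchange factor Ect2 (34) and Gas2l3 (18).

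Of the cyclin and ubiquitin genes, Cdca3 was detected in 98 cells (53.8%, 46.3% to 61.2%) and Ube2c, which supplies ubiquitin to the anaphase-promoting complex, in 74 (40.7%, 33.4% to 48.2%). Cdk1 was detected in 71 cells (39.0%, 31.9% to 46.5%), and its share was 33.3% in the cells 1 to 96 and 45.3% in the others. The signal of Cdk1 had a median of 0.196 (0.001 to 395) and 0.584 (0.014 to 332) in these sets. Ccnb2 was detected in 65 cells (35.7%, 28.8% to 43.1%) and Ccnb1 in 29 (15.9%, 10.9% to 22.1%). The signal of Ccnb1 stood at its floor in the median cell of each set and reached 381 and 61.6. The Cdk1-binding proteins Cks1b and Cks2 were detected in 50 and 47 cells, the phosphatase gene Cdc25c in 51 and Cdc20, the coactivator of the anaphase-promoting complex, in 33. The sets differed for some members: 44 of 53 had the higher share in the cells 1 to 96 and 9 in the others, while of all genes detected in at least 10% of cells 73.6% were higher in the cells 1 to 96. The median difference between the sets was 3.73 points over the members and 4.38 points over all these genes, so the members shifted no more than other genes.

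**Figure D1:**
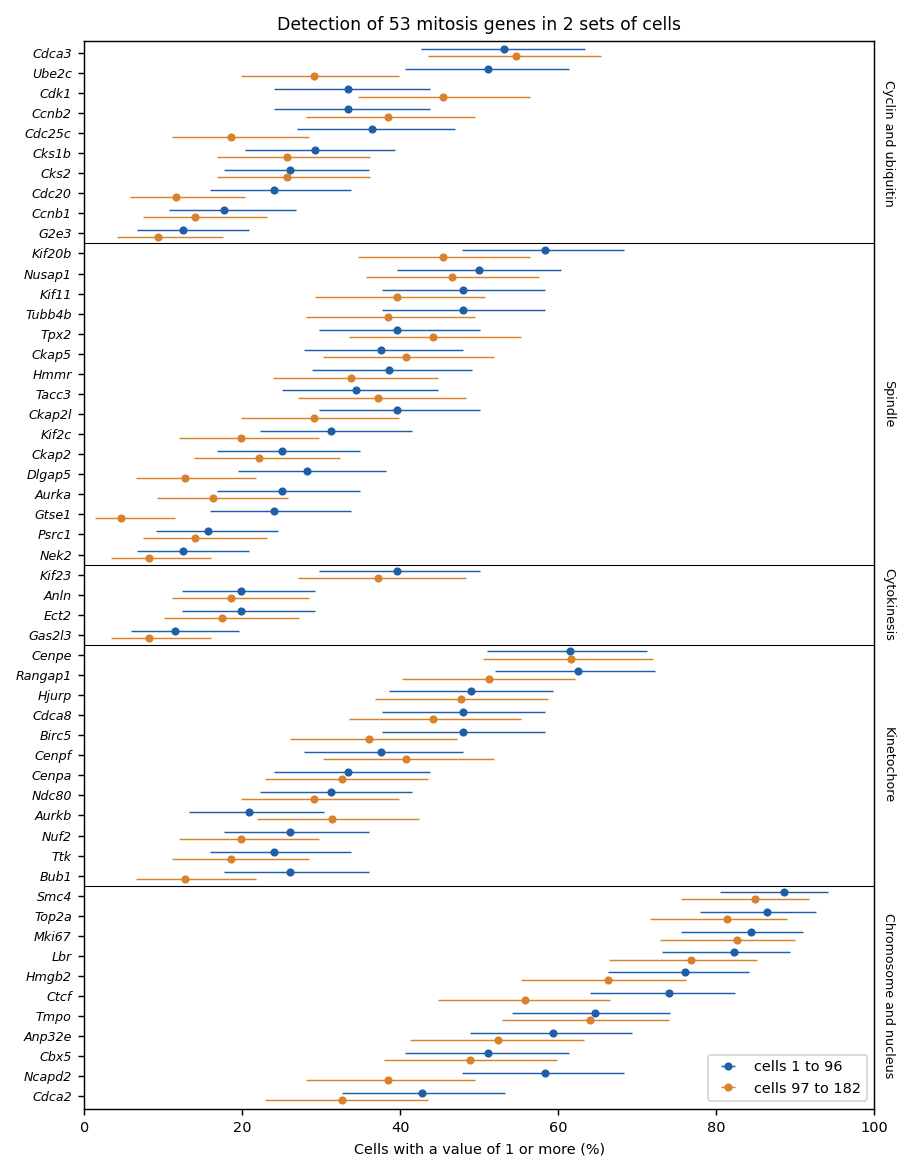
Share of cells (%) with each of the 53 mitosis genes at a value of 1 or more, by role, in cells 1 to 96 and in cells 97 to 182. Points are shares and bars are exact 95% intervals. Chromosome genes reach 86.8% over all cells, Gas2l3 is lowest at 9.89%, and Gtse1 stands at 24.0% in one set and 4.65% in the other.

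Counting limits touch some members. The exons of 16 members overlap another gene in GENCODE M21, 13 of them a gene on the opposite strand (Nusap1 and Oip5, Cdc20 and Elovl1, Ube2c and Tnnc2 are examples), and whether counting used strand was not given in the sources used here. That annotation names 4 pseudogenes after Ccnb1, Ccnb2 and Tubb4b, so the values of these members are uncertain to the extent that reads were shared. Only pseudogenes named after a member's symbol were sought, so those under other names would be missed for any member.

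The number of members detected differed widely between cells. A cell held a median of 18 of the 53 members (range 3 to 46, middle 50% of cells 13 to 28). The median was 20 (4 to 46) in the cells 1 to 96 and 18 (3 to 43) in the others. The SD over cells was 9.51, whereas members detected independently at these shares would give 3.25, and within the sets it was 10.1 against 3.28 and 8.59 against 3.18. The same spread was not computed for other sets of genes, so it is not a trait shown to be particular to the members. At least 10 members were found in 167 cells (91.8%), at least 20 in 86, at least 30 in 37 (27 of the cells 1 to 96 and 10 of the others) and at least 40 in 6. No cell lacked all members, and 15 cells (8.24%) had fewer than 10. Cells with many members also had more genes above their floor. The median was 2333 in cells with fewer than 10 members, 2325 with 10 to 29, 3009 with 30 or more and 4085.5 with 40 or more. Spearman's rho between the 2 numbers was 0.26 (n = 96 cells) and 0.29 (n = 86 cells). Between the members detected and all genes at 1 or more it was 0.40 and 0.29. Doublets were not called, and their part in the cells with the most members was not tested.

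**Figure D2:**
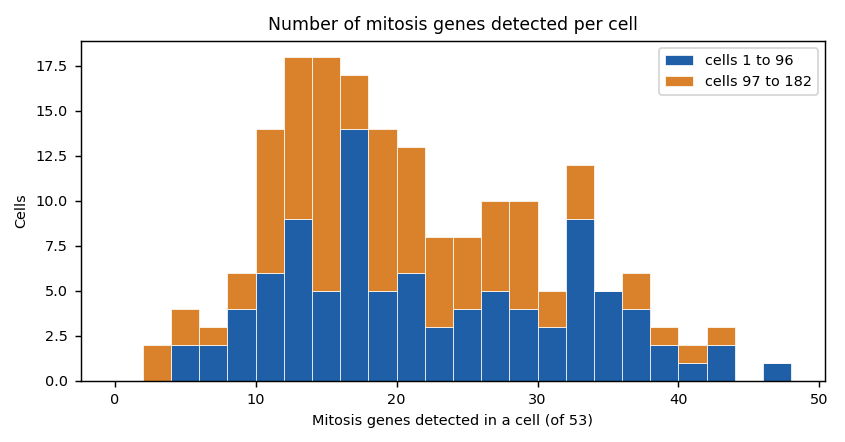
Number of cells (vertical axis) by the number of the 53 mitosis genes detected (horizontal axis, bins of 2 genes), with the 2 sets of cells stacked. Counts run from 3 to 46 genes with a median of 18, and a tail of 37 cells reaches 30 or more.

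The composition of the low and high cells is described here without a test, since the members themselves defined them. In the 15 cells with fewer than 10 members, Lbr was detected in 12, Smc4 in 11, Mki67 in 6 and Ctcf in 6, while Top2a, Cdk1, Ccnb1, Birc5 and Bub1 were each detected in 0, which by the same limit of 3 cells allows a share of up to 20.0%. In the 37 cells with 30 or more, Top2a, Smc4 and Cenpe were detected in all 37, Hmgb2 in 36, Mki67 in 35, Nusap1 in 34, Kif23 in 32 and Tpx2 in 31. Cdk1 was detected in 29 of these cells, Ccnb2 in 24, Bub1 in 20, Cdc20 in 17, Ccnb1 in 16 and Nek2 in 13. Even these cells therefore held the rarer members in part only. The B cell gene Cd79b was detected in all 37 of the high cells and in 14 of the 15 low cells, and Bcl6 in 21 and 5.

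Each member was also set against the number of the other 52 members in the same cell. Cells with Nek2 held a median of 34 other members and cells without it 18, with 35 and 17.5 in the cells 1 to 96 and 28 and 18 in the others. For Ccnb1 the medians were 31 and 18 (32 and 17, and 28 and 18 in the sets), and for Bub1 30.5 and 16 (31 and 16, and 28 and 16). For Cdk1 they were 27 and 15 (31.5 and 16, and 21 and 14). These members marked cells with many of the others. Of the 10 members detected in under 20% of cells, Nek2 had the highest median and Psrc1 the lowest (23 and 18). Anln gave 26 and 17, and G2e3 26 and 18. For Cdc25c (28.0% of cells) the medians were 23 and 17. They were also 23 and 17 for Kif2c (25.8%), a kinesin that takes microtubules apart. The part of low detection in these medians was not tested. For Top2a, which most cells held, the medians were 20 and 9, so that its absence went with few members. Lbr separated cells little, with 19 and 15, and Dlgap5, a protein of kinetochore fibres, gave 21.5 and 18. For Cdc20 the difference was found in the cells 1 to 96 (32 and 17) and was small in the others (20 and 18).

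The B cyclins were examined with Cdk1. Both Ccnb1 and Ccnb2 were detected in 18 cells, Ccnb1 without Ccnb2 in 11, Ccnb2 without Ccnb1 in 47 and neither in 106. The median number of other members was 32 in cells with both, 22 with Ccnb1 alone, 20 with Ccnb2 alone and 15 with neither. Within the cells 1 to 96 these medians were 35 (10 cells), 24 (7), 24.5 (22) and 16 (57). Within the others they were 28 (8 cells), 18.5 (4), 20 (25) and 14 (49). In the same order, the median number of genes above the floor was 2774, 2724, 2359 and 2381.5. It was 3603, 2868, 2718.5 and 2631 in the cells 1 to 96, and 2377.5, 2261.5, 2139 and 2176 in the others. The part of depth in the numbers of members was not tested. Cdk1 was detected with a B cyclin in 41 cells, which held a median of 27 other members (11 to 43), and without one in 30 cells, which held 21.5 (11 to 34). The 76 cells with none of these 3 genes held a median of 13 (3 to 40). In the cells 1 to 96 the medians of these classes were 31, 28.5 and 13, and in the others 24, 19 and 13. The classes overlapped in range, and cells with neither cyclin reached 40 other members.

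Pairwise relations were taken as Spearman's rho across cells for the 52 members detected in at least 10% of cells, which leaves out Gas2l3 at 9.89%. They are descriptions, since the cells share 1 sample and differ in depth, and most values in such sparse data are weak. With the number of genes above the floor regressed out of ranks within each set, the median over pairs of members was 0.16. Over 1326 pairs the median rho was 0.22 in the cells 1 to 96 and 0.16 in the others, against 0.01 and 0.02 over all pairs of the 5409 genes detected in at least 10% of cells. Of the pairs of members, 94.8% and 90.7% were above 0, and 26.5% and 11.6% reached 0.3, against 0.696% and 1.41% of all gene pairs. Over both sets pooled, more cells held both genes than independent detection gives in 1241 pairs (93.6%). The same count was not made over all pairs of genes, and the sets and cells differ in detection. It is therefore not a trait shown to be particular to the members.

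The highest pairs included chromosome genes with each other and spindle with cytokinesis genes. Between Top2a and Smc4 rho was 0.60 in the cells 1 to 96 and 0.37 in the others, and between Top2a and Mki67 0.58 and 0.37. Tpx2 and the cytokinesis kinesin Kif23 gave 0.50 and 0.45, with both detected in 47 cells where independent detection gives 29.2. Top2a gave 0.64 and 0.29 with Nusap1 and 0.34 and 0.56 with Tmpo. Cdk1 and Aurkb gave 0.47 and 0.38 and shared 35 cells, against 18.3. Ube2c and the kinetochore protein gene Cenpf gave 0.53 and 0.35. Nuf2 and Bub1 gave 0.40 and 0.44 and shared 21 cells, against 8.31. At the other end, Cdc25c and Tmpo gave -0.11 and -0.14, and Aurka and Hjurp -0.07 and -0.10. Kif2c and Hjurp gave -0.003 and -0.23. As a mean of both sets the lowest value of any pair was -0.12. Genes at their floor in most cells can hardly give a strongly negative rho, so these values cannot decide whether any members are opposed.

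Genes whose products bind each other or act together were not always the closest pairs. Cks1b and Cks2, which each bind Cdk1, gave 0.35 and 0.45 and shared 25 cells, against 12.9 for independent detection. With Cdk1 itself, Cks1b gave 0.41 and 0.23 and Cks2 0.37 and 0.19. Cdk1 gave 0.41 and 0.30 with Ccnb2 and 0.25 and 0.11 with Ccnb1. Ccnb1 and Ccnb2, which each bind Cdk1, shared 18 cells, against 10.4. Ccnb1 and Cdc20 shared 14, against 5.26. The values for Ndc80 and Nuf2 were 0.24 and 0.39. Within the chromosomal passenger complex, Birc5 and Cdca8 gave 0.25 and 0.32, Aurkb and Birc5 0.23 and 0.26, and Aurkb and Cdca8 0.19 and 0.16. Cenpa and its chaperone Hjurp gave 0.08 and -0.02 and shared 28 cells, against 29.0, so that no relation was seen between them. Hmmr and Tpx2, which interact at spindle poles, gave 0.55 in the cells 1 to 96 and 0.16 in the others.

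**Figure D3:**
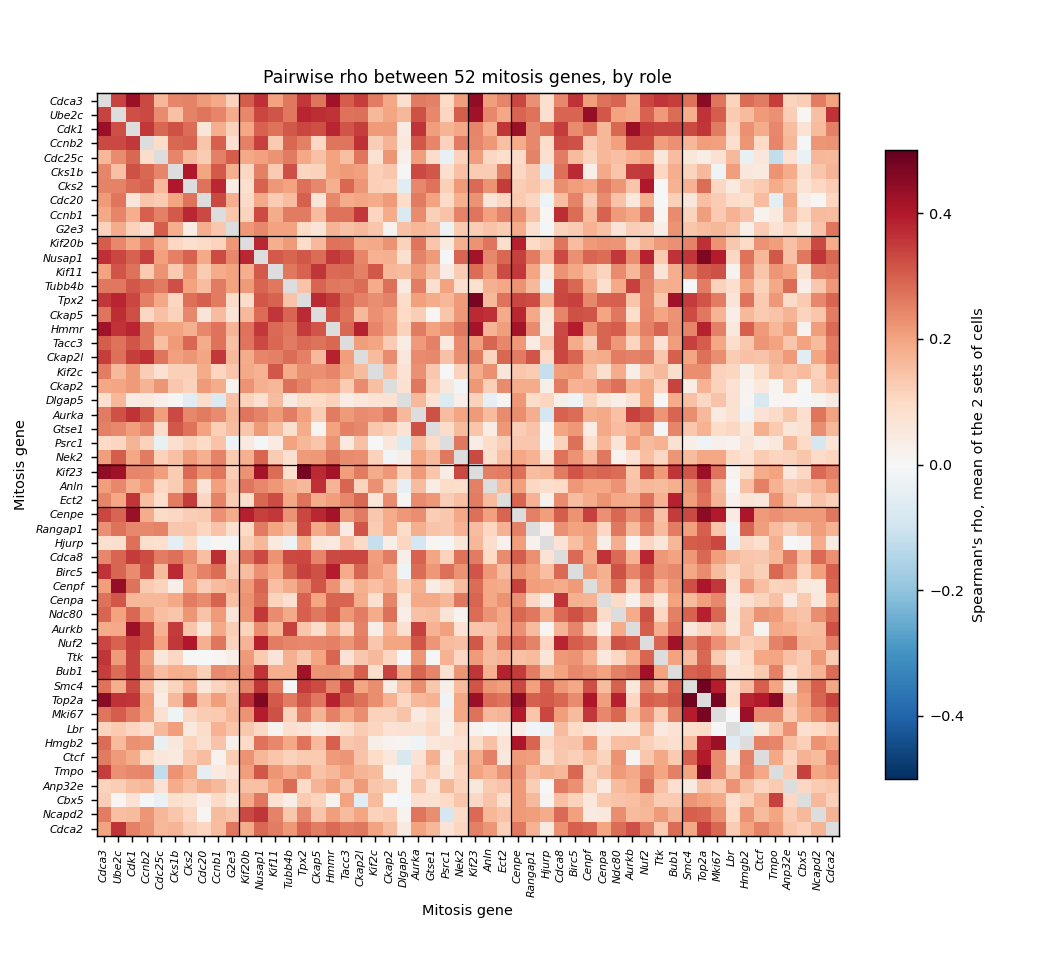
Spearman's rho, averaged over the 2 sets of cells, for each pair of 52 mitosis genes, ordered by role in the order cyclin and ubiquitin, spindle, cytokinesis, kinetochore, chromosome (black lines separate roles). Red is positive and blue negative. Most pairs are weakly positive, Top2a is high with Smc4, Mki67 and Nusap1, and the rows of Lbr, Dlgap5, Psrc1 and Hjurp are pale.

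Each gene was then compared with a member score, the mean z-score of log2(value + 1) over the 52 members with the gene itself left out. A rho of 0.3 or more in both sets was taken as following the score. Of all 5409 genes tested, 1.44% did so, and of the 52 members 33 did (63.5%). Within the cells 1 to 96 alone it was 44 members, against 4.31% of all genes, and within the others 35, against 2.61%. Over all cells at once it was 33, against 1.87%. With the number of genes above the floor regressed out within each set, and rho averaged over the sets by their cells, it was 31. That measure is unlike the pooled one, so 33 and 31 do not give the effect of depth. Its share over all genes was not computed. The median rho was 0.45 and 0.35 over the members and 0.05 and 0.04 over all genes. Top2a followed the score most closely (0.74 and 0.63), before Cenpe (0.65 and 0.50), Nusap1 (0.74 and 0.39), Cdca3 (0.64 and 0.49) and Mki67 (0.70 and 0.40). Cdk1 gave 0.60 and 0.49. The values were low in both sets for Psrc1, a spindle protein gene (0.16 and 0.15), Dlgap5 (0.07 and 0.21) and Lbr (0.17 and 0.01). Cdc20 (0.43 and 0.04) and the histone chaperone gene Anp32e (0.40 and 0.10) were low in the cells 97 to 182.

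By role, 11 of 12 kinetochore members followed the score in both sets, all but Hjurp (0.35 and 0.18). Of the chromosome members 8 of 11 did, of the spindle members 8 of 16, of the cytokinesis members 2 of 3 tested and of the cyclin and ubiquitin members 4 of 10. The median rho within the cells 1 to 96 ranged over the roles from 0.40 (chromosome) to 0.47 (cytokinesis), and within the others from 0.27 (cyclin) to 0.38 (kinetochore). Members with a CHR match in their promoter window had a median rho of 0.41 (33 members, mean of both sets), and members without one 0.35 (13 members). With a CCAAT match it was 0.36 (35 members) and without one 0.44 (11 members).

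Other genes of mitosis were taken as a list of 79 genes in the table, 68 of them tested. In both sets 23 (33.8%) reached 0.3, and the median rho was 0.37 and 0.31. The highest were the passenger subunit Incenp (0.61 and 0.44), the condensin subunit Smc2 (0.60 and 0.43) and Prc1, which bundles microtubules of the central spindle (0.59 and 0.43). The mitotic kinase Plk1 gave 0.51 and 0.34 and the cyclin Ccna2 0.50 and 0.37. Of 38 tested genes of the S phase list, 0 reached 0.3 in both sets, and the median rho was 0.17 and 0.14. The ribonucleotide reductase subunit Rrm2 gave 0.36 and 0.27, and the replicative helicase subunit Mcm6 -0.13 and -0.03. Outside these lists the genes most like the members were 2810417H13Rik (0.59 and 0.35) and the linker histone gene Hist1h1b (0.51 and 0.42). As a mean of both sets, 2810417H13Rik was closer to the S phase score (0.59) than to the member score (0.47), and Hist1h1b was about as close to either (0.45 and 0.47). Of the 15 named by the rule, 8 were Hist1 histone genes, whose near-identical copies make their values uncertain.

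**Figure D4:**
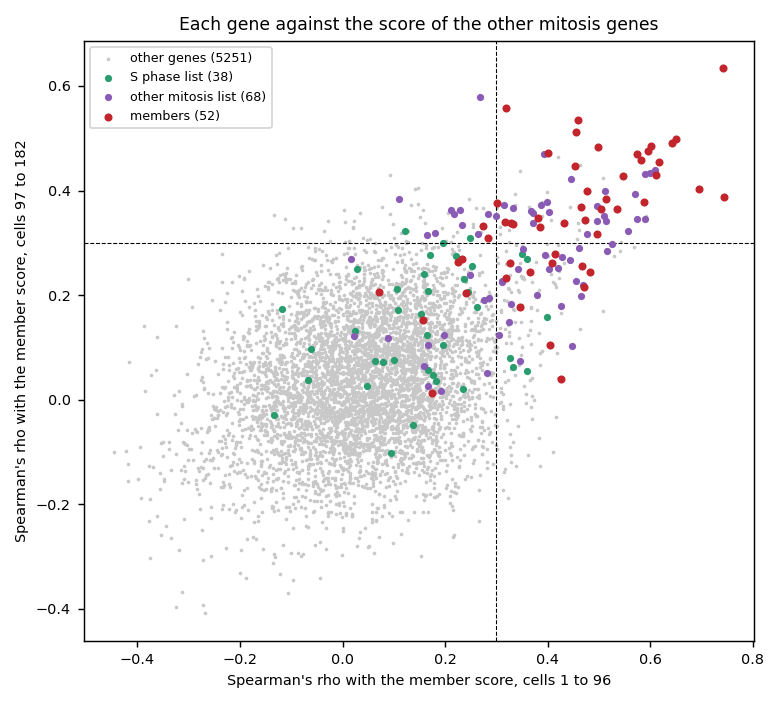
Spearman's rho of each of 5409 genes with the member score in cells 1 to 96 (horizontal) and in cells 97 to 182 (vertical). Members are red, other mitosis genes purple, S phase genes green and the rest grey, and dashed lines mark 0.3. The upper right field holds 78 genes, 33 of them members, 23 other mitosis genes and 0 S phase genes.

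The members differed in how they ran with the S phase genes. The rho with an S phase score, as a mean of both sets, had a median of 0.26 over the chromosome members, 0.13 over the kinetochore members, 0.07 over cytokinesis and 0.06 over both the spindle and the cyclin members. It was highest for Tmpo (0.43), Top2a (0.42), Mki67 (0.38), Cbx5, the heterochromatin protein HP1 alpha (0.30), Smc4 (0.27) and Hmgb2 (0.26). It was lowest for Cdc25c (-0.10), Ube2c (-0.05), Cdc20 (-0.04), Ccnb1 (-0.04) and Psrc1 (-0.03). Tmpo ran with the S phase score and the member score alike (0.43 and 0.44), whereas Ube2c gave -0.05 with the S phase score and 0.52 with the member score.

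Zone genes divided the cells by transcript. Cxcr4 without Cd83 was detected in 52 cells, Cd83 without Cxcr4 in 53, both in 35 and neither in 42. The mean number of members per cell was 22.0 (median 20, range 5 to 43) in the Cxcr4 only cells and 20.4 (18, 9 to 46) in the Cd83 only cells, a difference of 1.58 members between heavily overlapping groups. It was 0.63 in the cells 1 to 96 and 3.24 in the others. The Cxcr4 only cells also had more genes above their floor (median 2632 against 2398), whose part in the difference was not tested. The median was 18 members in cells with both genes (21 and 17 in the sets) and 18.5 in cells with neither (17 and 19.5).

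Few single members differed between these classes. A difference in share of at least 15 percentage points was reached upwards by 1 of 52 members, against 4.91% of 5401 genes, and downwards by 1, against 3.04%, so that members passed this size no more often than other genes. Within the cells 1 to 96 it was reached upwards by 1 member (1.92%, against 8.87% of genes), and within the others by 12 (23.1%, against 13.4%). Downwards it was reached by 3 (5.77%, against 6.85%) and 4 (7.69%, against 11.6%). Cks2 was detected in 18 of 52 Cxcr4 only cells (34.6%, 22.0% to 49.1%) and 9 of 53 Cd83 only cells (17.0%, 8.07% to 29.8%), with differences of 14.8 and 20.9 points in the sets. Rangap1 was detected in 27 and 37 cells, a difference of -17.9 points, with -9.70 and -29.1 points in the sets. In both sets it was reached by 0 members in either direction, and by 1.80% of genes upwards and 1.07% downwards, so that 0 of 52 is near the share over all genes. The median difference was 4.21 points over members and 0.33 points over all genes, and 34 of 52 members (65.4%) were higher in the Cxcr4 only cells, against 53.9% of genes. As the members ran together across the same cells, their directions are not separate results. Single values were unsteady, and the difference for Cenpa was -6.36 points in the cells 1 to 96 and 45.0 points in the others. Top2a was detected in 86.5% and 84.9% of the 2 classes and Mki67 in 86.5% and 83.0%. The rho of the member score with Cxcr4 was 0.07 and 0.15, and with Cd83 -0.05 and -0.01.

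Isotype was read from the dominant heavy chain constant gene, the one with over 50% of a summed value of at least 10. It was Ighm in 123 cells and a switched gene in 41. The IgM cells held a mean of 20.3 members (median 18, range 3 to 46) and the switched cells 22.8 (22, 4 to 41). The difference of -2.49 members was -2.29 in the cells 1 to 96 and -2.40 in the others, small beside the SD of 9.51 over cells, and the ranges overlapped almost fully. The median number of genes above their floor was 2407 and 2436. Of the switched cells, the median was 15.5 members in 14 Ighg1 cells, 25 in 13 Ighg2b cells, 23 in 9 Ighg2c cells and 27 in 5 Ighg3 cells. These medians rest on few cells, and that of the Ighg1 cells was 21 (8 cells) in the cells 1 to 96 and 14.5 (6 cells) in the others.

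Of 52 members 39 (75.0%) had the lower share in IgM cells, against 50.1% of all genes. In both sets 25 were lower (48.1%, against 26.7% of genes) and 6 higher (11.5%, against 25.5%). The members ran together across the same cells, so these counts are not separate results. A share at least 15 points lower was found for 4 members (7.69%), against 3.67% of genes, and at least 15 points higher for 0, against 2.15%. Within the cells 1 to 96 it was lower by this size for 6 members (11.5%, against 7.04%), and within the others for 10 (19.2%, against 11.3%). It was higher by this size for 2 members (3.85%, against 6.89%) in the cells 1 to 96, Ncapd2 and Ccnb2, which were named after their values were seen, and for 0 (against 7.42%) in the others. Birc5 was detected in 47 of 123 IgM cells (38.2%, 29.6% to 47.4%) and 24 of 41 switched cells (58.5%, 42.1% to 73.7%), with differences of -23.6 and -14.3 points in the sets. Cdca2, a chromatin phosphatase subunit gene, was detected in 44 and 22 cells, the tubulin gene Tubb4b in 48 and 23, and Ctcf in 79 and 33. For Tubb4b and Ctcf the difference lay mainly in the cells 1 to 96 (-26.7 and -24.0 points) and was small in the others (-3.25 and -4.36). In both sets 0 members passed 15 points, beside 0.722% of genes higher and 1.00% lower, so that this too is near the share over all genes. Ccnb1 was detected in 15.4% of IgM and 14.6% of switched cells.

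**Figure D5:**
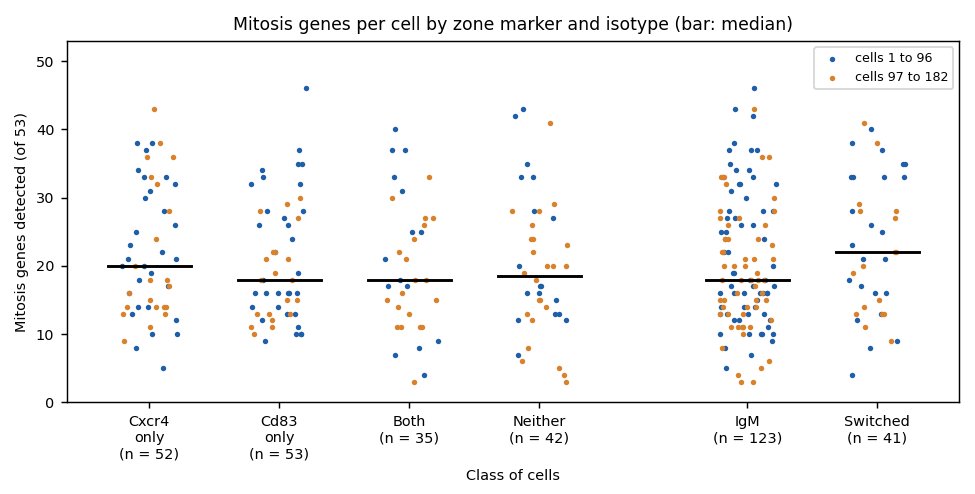
Number of the 53 mitosis genes detected in each cell (vertical axis) by zone class and by isotype class, with cells coloured by set and a bar at the median. Medians run from 18 to 22 genes, and the points of every class overlap.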

How the data were processed

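Each of 182 cells gave 1 RNA library. The authors deposited 1 table of a normalized signal per gene and cell, not on a log scale. TopHat2 2.0, Cufflinks 2.2, Cuffdiff and mm10 are named per the submitters' processing notes, while the sources used here do not give the starting unit, annotation, strand setting or method of normalization. The values are not counts, so read depth is unknown and no count model was used. The 17035 rows held 17034 symbols. The columns were split into cells 1 to 96 and 97 to 182 from the floors of the values alone, and what the sets are is unknown. No doublet caller was run.

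From the table, detection (value of at least 1), exact 95% intervals, Spearman's rho of log2(value + 1), a member score (members in 10% of cells or more) and differences in shares between classes of cells were computed with Python 3.11.15, pandas 2.3.3, numpy 2.4.6 and scipy 1.17.1. The calculation was tested on simulated data. Alternatives changed the detection value, pseudocount, filter, cells used and class rules, or regressed out the number of genes above the floor. All members could be named, with the genes of the S phase and other mitosis lists, the 15 outside genes and the 20 highest and 5 lowest pairs by mean within-set rho. Pairs of genes whose products bind each other or act together were chosen besides. Members and lists were chosen with earlier results of these data known. With 1 group, no test between samples was possible.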

Additional observations from a re-analysis of the deposited data

How the results depend on the processing

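The median share of cells with a member, 37.9%, was 22.5% at a detection value of 5, 47.8% for values above the floor and 36.0% in cells 97 to 182. The median of 18 members per cell was 11 at a detection value of 5 and 25.5 for values above the floor. The difference of -2.49 members between IgM and switched cells was -1.62 at a detection value of 5, -2.60 above the floor, -2.29 in cells 1 to 96, -2.40 in cells 97 to 182, and -2.03 where the dominant gene held over 80%. It was -2.78 without cell 122, which has the highest summed signal, and -1.93 without the 18 cells with the fewest genes above their floor, both chosen after seeing the data. The causes of these shifts were not tested. No value reversed its sign under the alternatives run. Over all alternatives the median rho between members stayed between 0.16 and 0.22, the members following the score between 30 and 44, and the Cxcr4 only minus Cd83 only difference between 0.63 and 3.24 members. No paired analysis was possible because all cells form 1 group. Shares depend on the detection value, and the depth behind an undetected gene is unknown.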

Other observations

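The genes most opposed to the mitosis genes were named after their values were seen, and are given as values. Klf13, a Krüppel-like transcription factor gene, had a rho with the member score of -0.33 in cells 1 to 96 and -0.40 in cells 97 to 182. The forkhead factor gene Foxp1 gave -0.31 and -0.37, and the antiproliferative gene Btg1 -0.27 and -0.41. Cd52, a surface glycoprotein gene detected in 98.9% of cells, gave -0.27 and -0.39. Txnip, the thioredoxin-interacting protein gene, gave -0.33 and -0.26 and was detected in 31.9% of cells. Foxp1 and Txnip were opposed to the S phase score as well (means of both sets -0.37 and -0.37), whereas Jak1, a cytokine receptor kinase gene, gave -0.32 and -0.29 with the member score and -0.10 with the S phase score.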
